A study of Mus musculus with 70 samples.

Results

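The subject here is the globin genes and Alas2 in the brains of HAB and LAB mice, lines bred from CD-1 (ICR) mice whose anxiety-related behavior is high in HAB and low in LAB. All spots of the MPIP24k array whose name begins with hemoglobin, or is the name or symbol of Hbb-b1, Hba-a1 or Alas2, were taken, which gave 8 of 22824 probes: 3 for Hbb-b1, 1 for Hba-a1, 1 for Alas2 and 1 each for the embryonic chains Hba-x, Hbb-y and Hbb-bh1. The MPIP24k is a cDNA array on which each hybridization holds both lines, one labelled with Cy3 and the other with Cy5. Males 10 weeks old were used. The paper states that mice were selected on the elevated plus-maze, also went through the tail-suspension test, and were killed days after it. Whether this testing affected the values was not tested. A pool of RNA from 6 HAB mice was set against a pool from 6 LAB mice for each of 7 brain regions. The regions were taken as punches of frozen tissue, and their RNA was amplified in 2 rounds and hybridized. They were the hypothalamic paraventricular nucleus (PVN) and the basolateral (BLA), central (CeA) and medial (MeA) amygdala. The others were the nucleus accumbens (NAc), the cingulate cortex (Cg) and the supraoptic nucleus (SON). Each region has 10 arrays, on 5 of which HAB was labelled with Cy3 and on 5 with Cy5, and all 10 repeat the same pair of pools. P-values therefore do not carry the spread between animals, and as p-values of the lines they are too small. The paper names 6 mice per line for these arrays, so the 7 regions come from the same mice and are not independent of each other. In such punches of frozen tissue, more cells of a type cannot be told apart from more RNA per cell.

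Hemoglobin is a tetramer of 2 alpha-like and 2 beta-like globin chains, each holding a heme group that binds oxygen. Hba-a1 encodes an adult alpha chain and Hbb-b1 the major adult beta chain, whereas Hba-x, Hbb-y and Hbb-bh1 are the zeta, epsilon-y and beta-h1 chains of the embryo. Alas2 is the erythroid form of aminolevulinic acid synthase, the first enzyme of heme synthesis. The mRNA of the adult chains is most abundant in red cells and their precursors, and smaller amounts of alpha- and beta-globin mRNA have been described in neurons and glia of rodents. The adult alpha genes are near-identical copies of each other, as are the adult beta genes, so that a cDNA spot named Hba-a1 or Hbb-b1 can also bind RNA of the other copy.

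The sequences shown here are the pair of primers with which the study measured Hbb-b1 by qPCR, which name the beta chain in question, and the promoters of the adult alpha chain and of Alas2, the partners of Hbb-b1 in hemoglobin production. The primers lie in exons 1 and 2 of Hbb-b1 on chromosome 7. Hbb-b1 is not among the genes for which the paper reports a line difference by qPCR.
Hbb-b1 forward: cctgtggggaaaggtgaac
Hbb-b1 reverse: ggccttcactttggcattac
The promoters span 250 bases before the start of the gene and 50 bases from it (RefSeq, GRCm38.p6), and capitals mark GATAA, the core bound by GATA factors, and CACCC, a core bound by erythroid Kruppel-like factors, searched on both strands (TTATC and GGGTG on the other strand) with overlaps allowed.
Hba-a1 promoter, chr11:32283422-32283721, plus strand: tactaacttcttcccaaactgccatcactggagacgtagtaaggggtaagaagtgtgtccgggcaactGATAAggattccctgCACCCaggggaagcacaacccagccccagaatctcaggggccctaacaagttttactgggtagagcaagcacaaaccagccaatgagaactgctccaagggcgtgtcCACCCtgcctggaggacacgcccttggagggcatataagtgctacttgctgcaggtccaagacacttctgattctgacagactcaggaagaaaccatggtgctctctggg
Alas2 promoter, chrX:150547167-150547466, plus strand: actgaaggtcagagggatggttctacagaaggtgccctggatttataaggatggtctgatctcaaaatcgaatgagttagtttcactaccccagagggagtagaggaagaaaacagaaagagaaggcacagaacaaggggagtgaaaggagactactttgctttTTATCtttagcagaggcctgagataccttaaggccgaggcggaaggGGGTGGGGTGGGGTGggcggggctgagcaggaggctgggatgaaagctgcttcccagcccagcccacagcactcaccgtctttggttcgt
Both windows hold 1 GATAA; the Hba-a1 window holds 2 and the Alas2 window 3 matches to CACCC. Of 32851 promoters of this length, 25.4% hold GATAA, 57.5% hold CACCC and 12.6% hold both, as these windows do. In the same annotation Hba-a1 lies on chromosome 11 from 32283672 to 32284486 and Alas2 on chromosome X from 150547417 to 150570622. Hba-x lies on chromosome 11 from 32276600 to 32278116, and Hbb-bh1 and Hbb-y lie on chromosome 7 from 103841638 to 103843162 and from 103851754 to 103853207. The part of each gene that a spot covers is not given in the sources used here.

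The brightness of the spots decided which ratios could be read. A channel was counted as above the empty spots when its raw intensity exceeded the median plus 2 median absolute deviations of the 1170 empty spots of that channel, a limit that 20.8% of the empty spots' own values also exceeded. Of 70 arrays, Hbb-b1 probe 13531 passed it on 70 HAB and 69 LAB channels, Hbb-b1 probe 21085 on 63 and 58, and Hbb-b1 probe 12985 on 52 and 40. The Alas2 probe was above it on 58 HAB and 48 LAB channels and the Hbb-y probe on 40 and 39. The Hba-a1 probe exceeded it on 22 HAB and 21 LAB channels, the Hbb-bh1 probe on 29 and 27, and the Hba-x probe on 17 and 6, each on fewer than 35 of the 70 arrays. Hbb-b1 probes 13531 and 21085 and Alas2 were thus measured on most arrays, and Hbb-b1 probe 12985 and Hbb-y less often. With 3 median absolute deviations in place of 2, probe 12985 passed on 42 HAB and 31 LAB channels. Of Hba-a1, Hba-x and Hbb-bh1 only ratios between weak signals exist, for which no fold is given. Over the arrays, the median raw intensity of a channel ran from 135.2 to 2480, and saturation touched no more than 19 spots per array.

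Hbb-b1 was higher in HAB than in LAB mice. Ratios were expressed as log2 of HAB over LAB after loess normalization, so that values above 0 are higher in HAB, and 1 value per region was formed from both dye orientations. Hbb-b1 probe 13531, the brightest of the 3, stood at 0.99 in the PVN, 0.34 in the BLA, 0.50 in the CeA, 0.59 in the NAc, 0.74 in the MeA, 0.83 in the Cg and 1.88 in the SON. All 7 regions, as for 1.09% of all probes, and 66 of 70 arrays had it higher in HAB. Its mean over the regions was 0.84 (SE 0.122, 95% interval 0.59 to 1.09), which is 1.79-fold, with an adjusted p of 0.000342 by limma over the 7 region values (Benjamini-Hochberg over 22824 probes). The exact two-sided sign-flip permutation test over the regions gave p = 0.0156, the smallest that 7 values allow. Both tests treat the 7 regions as independent, although they come from the same mice.

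The second spot, Hbb-b1 probe 21085, showed a difference of the same size. It stood at 0.86 in the PVN, 0.57 in the BLA, 0.12 in the CeA, 0.66 in the NAc, 0.93 in the MeA, 1.15 in the Cg and 1.62 in the SON. The mean was 0.85 (SE 0.117, limma adjusted p = 0.000194), 1.80-fold, with 7 of 7 regions and 61 of 70 arrays higher in HAB. The third and weakest spot, Hbb-b1 probe 12985, ran from -0.23 in the CeA and -0.03 in the BLA to 0.89 in the PVN and 1.10 in the SON. Its mean of 0.47 (SE 0.117) did not pass the test (limma adjusted p = 0.121), although 5 of 7 regions and 51 of 70 arrays were higher in HAB. Without the CeA it passed (0.58, adjusted p = 0.00839). Of the 8 probes 2 passed, both higher in HAB, against 0.302% of all probes passing in either direction and 0.127% higher in HAB. With an offset of 0 in place of 50 in the background correction, neither of the 2 passed any longer (adjusted p = 0.0593 and 0.0585) at about the same size (0.88 and 0.91).

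**Figure D1:**
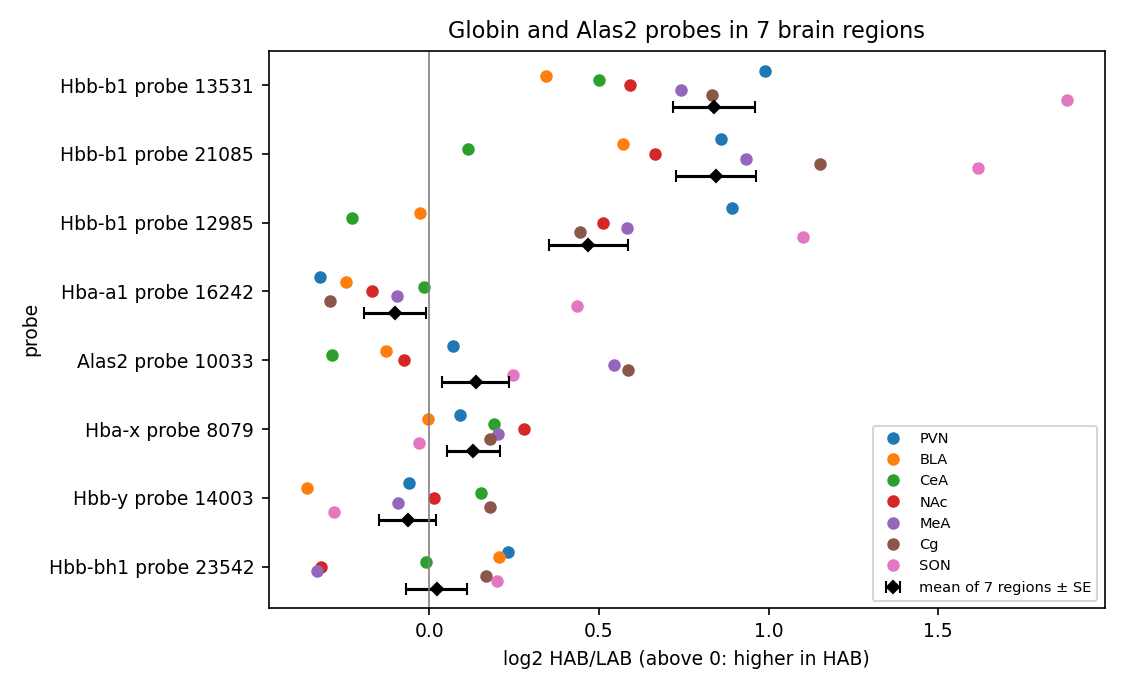
Log2 HAB/LAB of the 8 globin and Alas2 probes, 1 coloured point per brain region (mean of 10 arrays) and a black diamond for the mean of the 7 regions with its SE. For Hbb-b1 probes 13531 and 21085 every region lies above 0 and the SON is highest (1.88 and 1.62), while the means of the other genes lie between -0.10 and 0.14.

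The difference in Hbb-b1 was largest in the SON. For probe 13531 the 5 arrays on which HAB carried Cy3 gave 1.97, 1.95, 1.54, 1.35 and 1.54, and the 5 on which it carried Cy5 gave 2.36, 2.33, 2.38, 2.42 and 0.96. All 10 lay above 0, and the array at 0.96 was the lowest. The mean was 1.88 ± 0.51 (SD, n = 10 arrays), which is 3.68-fold, and the difference between the 2 pools passed limma's test over the arrays of this region (adjusted p = 0.000171). Leaving out the array at 0.96, an alternative added after the data were seen, gave 2.02 (adjusted p = 5.53e-05). The raw intensity of this spot in the SON had a median of 5261 (1161 to 9675) in HAB channels and of 1403 (584.0 to 3256) in LAB channels, so that the ranges overlapped before dyes were balanced. Probe 21085 gave 1.62 ± 0.70 (SD, n = 10 arrays, 3.07-fold, adjusted p = 0.000818), with all 10 arrays between 0.25 and 2.96. Probe 12985 gave 1.10 ± 0.77 (SD, n = 10 arrays) and did not pass (adjusted p = 0.0823), with all 10 arrays between 0.10 and 2.65. Of its channels on these 10 arrays, 8 HAB and 5 LAB channels exceeded the empty spots. In the SON 0.0613% of all probes passed higher in HAB, and 0.355% had all 10 arrays higher in HAB.

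The PVN and the Cg also passed for the brighter spots. In the PVN probe 13531 had its lowest array at 0.57, its median at 1.04 and its highest at 1.40, with a mean of 0.99 ± 0.27 (SD, n = 10 arrays, limma adjusted p = 0.00129). Probes 21085 and 12985 stood there at 0.86 (adjusted p = 0.00234) and 0.89 (adjusted p = 0.0232), so that in the PVN all 3 spots passed, against 0.14% of all probes higher in HAB. On all 10 arrays of the PVN the first 2 were higher in HAB, as were 0.443% of all probes. In the Cg probe 13531 ran from 0.07 over a median of 0.92 to 1.36 (mean 0.83 ± 0.36, SD, n = 10 arrays, adjusted p = 0.0271) and probe 21085 from 0.35 over 1.24 to 1.95 (mean 1.15 ± 0.53, SD, n = 10 arrays, adjusted p = 0.012), where 0.237% of all probes were called higher in HAB and 0.863% were higher on all 10 arrays. Probe 12985 was at 0.44 there and did not pass (adjusted p = 0.341). The Cg was scanned on different days, 6 arrays on one and 4, all with HAB in Cy3, on the other. On the first of these days 1 array had HAB in Cy3 and 5 had it in Cy5, and both orientations were given equal weight. So weighted, probe 13531 averaged 0.87 on the first day and 0.92 on the second, and probe 21085 averaged 0.98 and 1.15. With the day as a block, probe 13531 no longer passed in the Cg (0.82, limma adjusted p = 0.0694), while probe 21085 did (1.20, adjusted p = 0.0279). The Cg call of probe 13531 was lost without any 1 of the 5 replicate numbers (limma adjusted p = 0.0941 to 0.192), that of probe 21085 without 4 of them (up to 0.11), and the PVN call of probe 12985 also without 4 (up to 0.178). The calls of probes 13531 and 21085 in the PVN and the SON were kept without each replicate number.

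The remaining regions did not pass for any of the 3 spots. In the MeA, where 0.114% of all probes passed in either direction and 0.359% were higher in HAB on all 10 arrays, probes 13531 and 21085 stood at 0.74 ± 0.45 and 0.93 ± 0.57 (SD, n = 10 arrays each), with 9 and 10 arrays higher in HAB and adjusted p-values of 0.198 and 0.129. In the NAc, where these shares were 1.27% and 0.815%, they stood at 0.59 ± 0.43 and 0.66 ± 0.64 (adjusted p = 0.0752 and 0.138), with 10 and 8 arrays higher in HAB. In the BLA, where 0.101% of all probes passed, probe 13531 ran from -0.25 to 1.37 with a median of 0.20, and its mean of 0.34 (adjusted p = 0.722) rested on arrays with HAB in Cy3, which averaged 0.58, against 0.11 for HAB in Cy5. The 7 and 3 BLA arrays of different scanning days gave 0.39 and 0.37 with equal weight for both dye orientations within a day. In the CeA, where 0.0701% of all probes passed, probe 13531 was higher in HAB on 9 of 10 arrays (mean 0.50, adjusted p = 0.19), with a mean of 0.16 for HAB in Cy3 and 0.84 for HAB in Cy5, whereas probe 21085 was higher on 5 of 10, ran from -1.25 to 1.36 and averaged 0.12 (adjusted p = 0.894). Of 10 CeA arrays, 6 HAB and 9 LAB channels of probe 21085 exceeded the empty spots, against 10 and 9 in the SON. Over the 8 probes and 7 regions, 7 pairs of probe and region passed, all of Hbb-b1. On the study's own log2 table, where 5 probes had values in fewer than 4 regions, 11 passed. That table is filtered to between 8454 (SON) and 18596 (PVN) probes per region, so the shares of all probes given here do not apply to it.

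**Figure D2:**
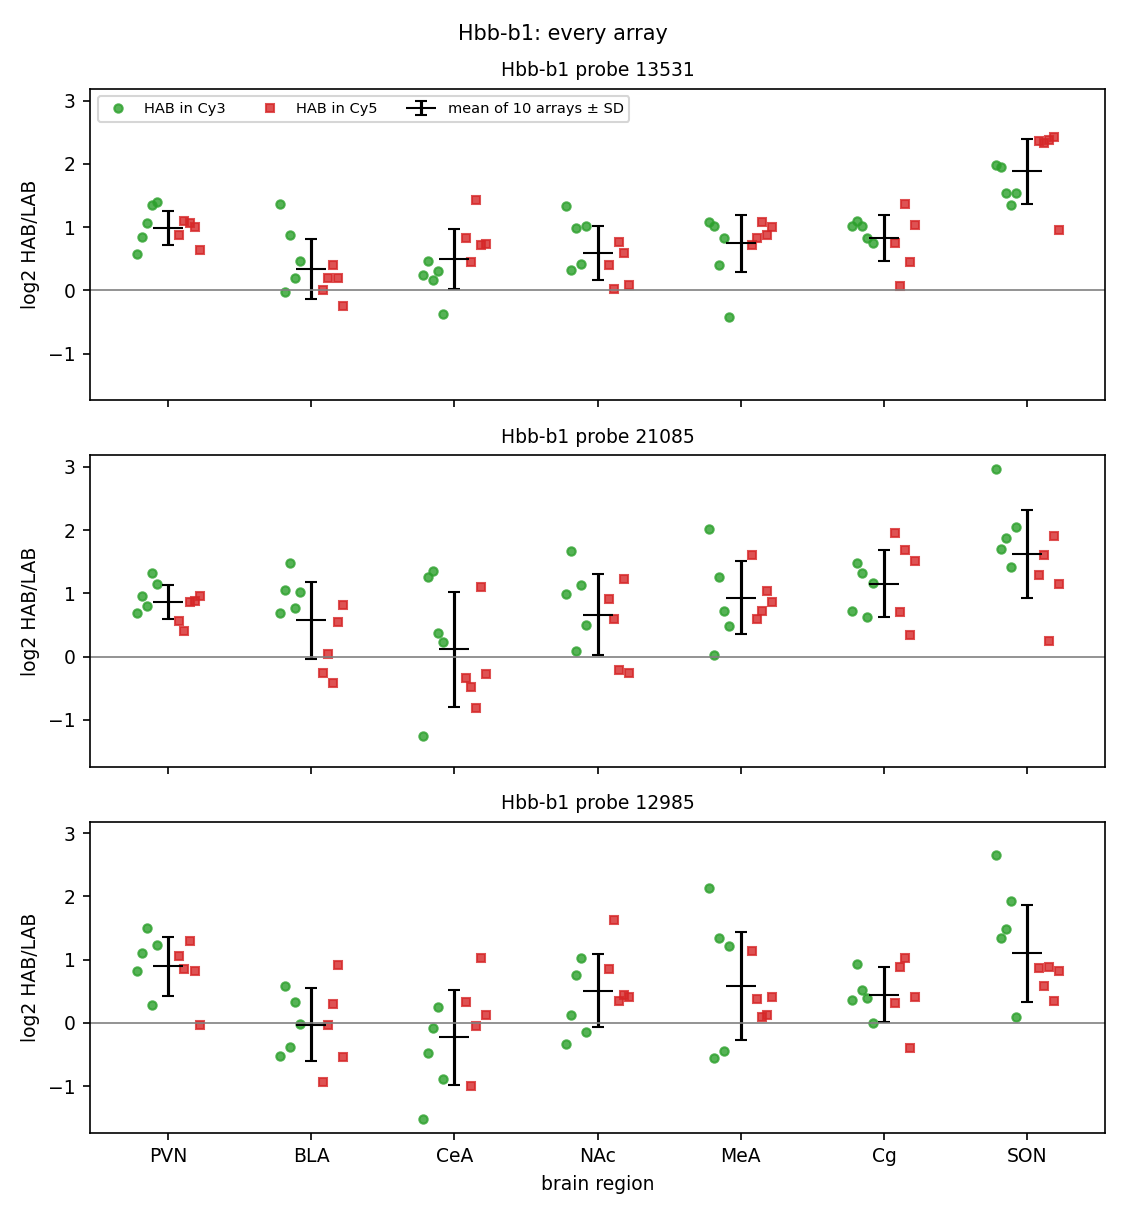
Log2 HAB/LAB of the 3 Hbb-b1 probes on every array by brain region, circles for arrays with HAB in Cy3, squares for HAB in Cy5, and bars for the mean of 10 arrays ± SD. All SON arrays lie above 0 for the 3 probes, and the CeA arrays of probe 21085 spread from -1.25 to 1.36.

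Between the arrays of these pools, the regions differed from each other in the size of the Hbb-b1 difference. Each region has 1 pair of pools, so a difference between regions cannot be told apart from one between single punches or amplifications. Limma's F-test over the 70 arrays, with dye terms per region, gave adjusted p = 1.23e-07 for probe 13531, 0.00164 for probe 21085 and 0.00477 for probe 12985, against 6.1% of all probes passing. This rested on the SON for the brighter spots: without it the adjusted p was 0.132 for probe 13531 and 0.0851 for probe 21085, while their mean over the other 6 regions stayed at 0.67 and 0.72 with adjusted p-values of 0.000787 and 0.00168 by limma over the region values. Probe 12985 no longer passed the F-test without the CeA (adjusted p = 0.0909). The other 5 probes did not pass, with adjusted p-values from 0.146 for Alas2 to 0.988 for Hba-x. Over the 7 region values the spots correlated with each other at Pearson's r of 0.85 (13531 and 21085), 0.83 (13531 and 12985) and 0.85 (21085 and 12985). This is a description over regions of the same mice, with the spots on the same arrays. Around the region and dye means the 70 arrays gave r of 0.08, -0.08 and 0.39 for the same pairs.

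Which region had the highest level of Hbb-b1 depended on the scale. The raw intensity of probe 13531 was set against all probes of its channel, and in HAB channels it stood at a median percentile of 98.5 in the SON, followed by 94.0 in the PVN, 92.5 in the MeA, 89.7 in the Cg, 87.0 in the NAc, 85.3 in the CeA and 80.4 in the BLA. In LAB channels it stood at 90.6 in the SON, 87.3 in the PVN, 84.9 in the MeA, 79.6 in the Cg, 78.6 in the CeA, 78.3 in the NAc and 74.9 in the BLA. The ranges of neighbours in these orders overlapped: in HAB channels the SON ran from 88.4 to 99.2 and the PVN from 92.7 to 95.8, and in LAB channels the SON from 80.0 to 94.5 and the PVN from 81.8 to 89.9. Divided by the median of the empty spots, the raw intensity of probe 13531 was instead highest in the PVN, at a median of 45.1 in HAB and 31.0 in LAB channels, against 30.1 and 7.25 in the SON. The same held for probe 21085, with 31.5 in HAB and 17.5 in LAB channels of the PVN and 12.1 and 5.68 in the SON. By percentile, probe 21085 also had its highest median in the SON, at a percentile of 96.1 in HAB channels and 84.9 in LAB channels, and its lowest HAB median in the CeA (56.2) and lowest LAB median in the BLA (48.7). Probe 12985 had its highest HAB median in the PVN (78.2) and its highest LAB median in the BLA (66.4), and its lowest in the NAc in both lines, with 30.6 in HAB channels and 17.2 in LAB channels.

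**Figure D3:**
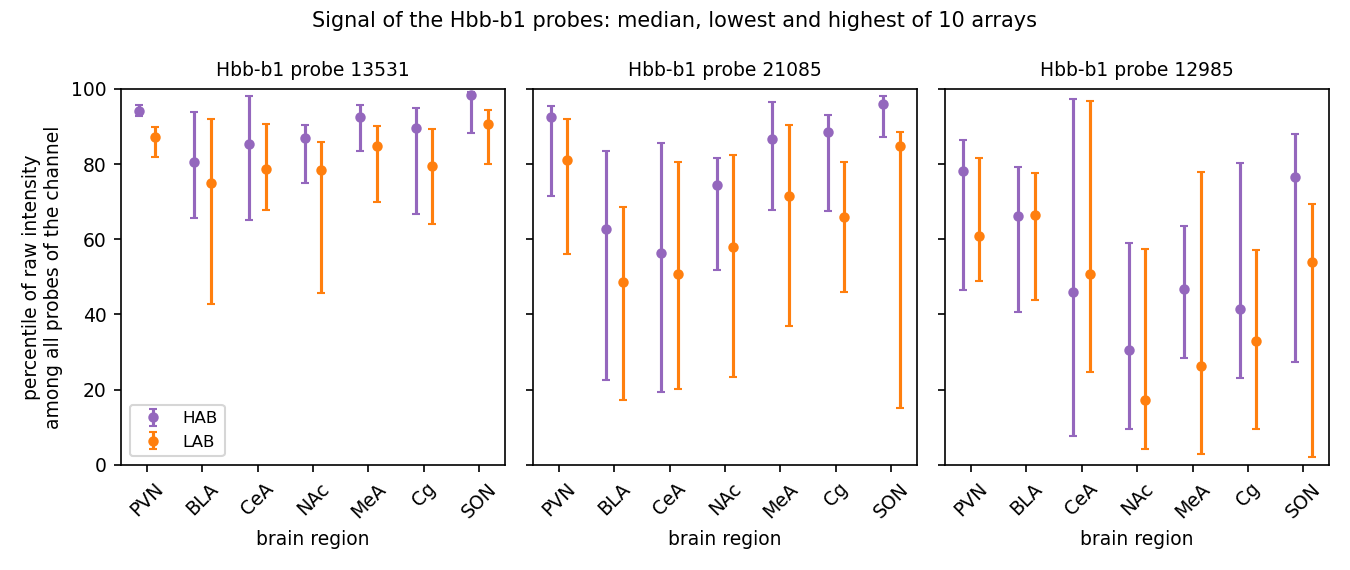
Percentile of the raw intensity of each Hbb-b1 probe among all probes of its channel, by brain region, with HAB left of LAB; points are medians and bars run from the lowest to the highest of 10 arrays. By percentile, probes 13531 and 21085 are highest in the SON in both lines, and the bars of HAB and LAB overlap in most regions.

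Hba-a1, the alpha partner of the beta chain, did not pass the test. Its probe stood at -0.32 in the PVN, -0.25 in the BLA, -0.02 in the CeA, -0.17 in the NAc, -0.09 in the MeA, -0.29 in the Cg and 0.44 in the SON. The mean was -0.10 (SE 0.090, limma adjusted p = 0.924), with 1 of 7 regions and 31 of 70 arrays higher in HAB. The SON was the only region above 0, with 7 of 10 arrays higher in HAB (lowest -0.63, median 0.36, highest 1.42) and an adjusted p of 0.739 within the region. The 95% interval of the mean, -0.29 to 0.09, ended below the interval of Hbb-b1 probe 13531, but of the 10 SON arrays only 4 HAB and 2 LAB channels of the alpha spot exceeded the empty spots, and 8 and 9 in the PVN. In the PVN 8 of 10 arrays were lower in HAB (adjusted p = 0.605). With an offset of 0 in the background correction the mean was -0.21 (limma adjusted p = 0.883). That the test was not passed does not show that the alpha chain was equal in both lines. The correlation of its region values with those of Hbb-b1 probes 13531, 21085 and 12985 was 0.74, 0.46 and 0.35 over 7 regions, and 0.30, 0.07 and 0.09 over the 70 arrays.

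Alas2 gave a positive mean that did not pass. Its probe stood at 0.07 in the PVN, -0.13 in the BLA, -0.29 in the CeA, -0.07 in the NAc, 0.54 in the MeA, 0.58 in the Cg and 0.25 in the SON. The mean was 0.14 (SE 0.099, 95% interval -0.07 to 0.34, limma adjusted p = 0.9), with 4 of 7 regions and 40 of 70 arrays higher in HAB. The Cg had 9 of 10 arrays higher in HAB, from -0.15 over a median of 0.62 to 1.20 (mean 0.58 ± 0.40, SD, n = 10 arrays, adjusted p = 0.139). The MeA had 7 of 10, with a range of -0.39 to 2.52 (adjusted p = 0.625). In the BLA the dye orientations disagreed, with a mean of -0.68 for HAB in Cy3 and 0.43 for HAB in Cy5. The SON, with the largest Hbb-b1 difference, stood below the Cg and the MeA for Alas2, and the correlation of Alas2 with Hbb-b1 over the 7 regions was 0.38 for probe 13531 and 0.71 for probe 21085.

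**Figure D4:**
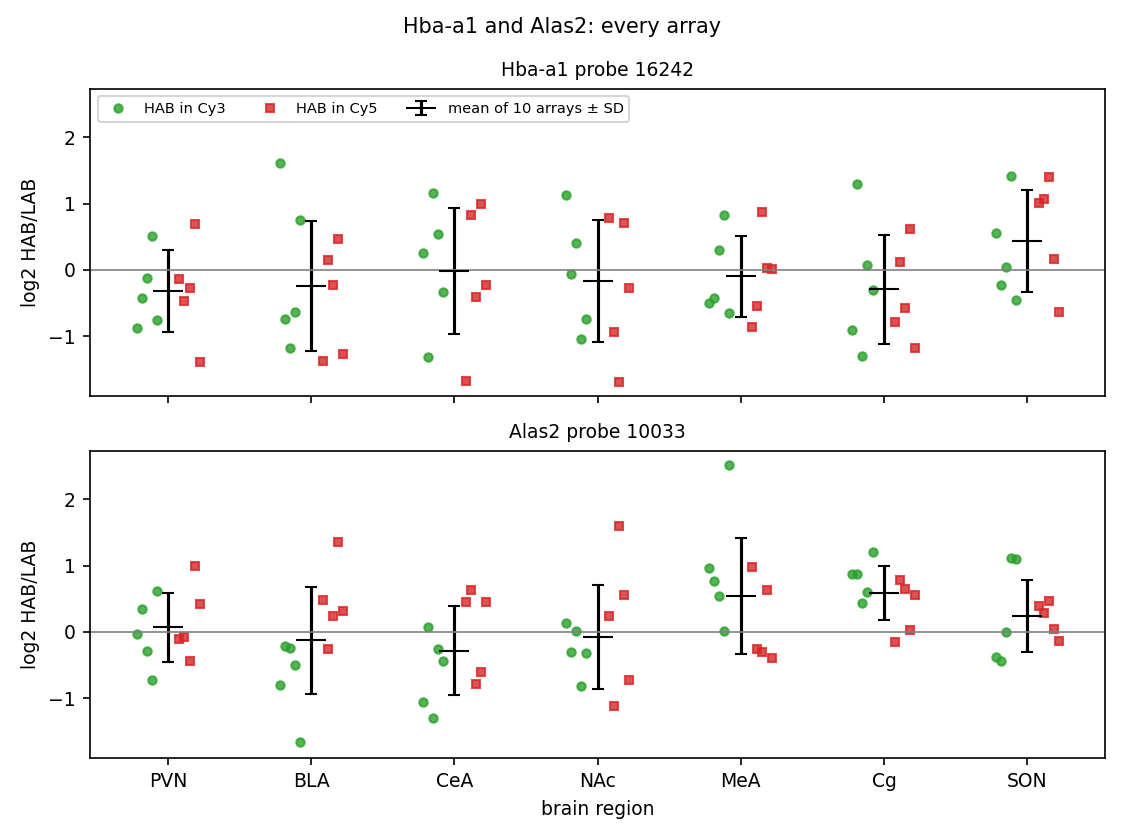
Log2 HAB/LAB of the Hba-a1 and Alas2 probes on every array by brain region, circles for HAB in Cy3, squares for HAB in Cy5, and bars for the mean of 10 arrays ± SD. Arrays of nearly every region lie on both sides of 0, and the region means run from -0.32 to 0.44 for Hba-a1 and from -0.29 to 0.58 for Alas2.

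The embryonic chains lay close to 0. Hba-x averaged 0.13 (SE 0.079, adjusted p = 0.86), Hbb-y -0.06 (SE 0.085, adjusted p = 0.958) and Hbb-bh1 0.02 (SE 0.089, adjusted p = 0.989) by limma over the 7 regions. Their region values ran from -0.03 to 0.28 for Hba-x, from -0.36 to 0.18 for Hbb-y and from -0.33 to 0.23 for Hbb-bh1, and none passed within a region. In the SON, where the Hbb-b1 difference was largest, Hbb-y stood at -0.28, Hba-x at -0.03 and Hbb-bh1 at 0.20. Of these 3 spots, those of Hba-x and Hbb-bh1 were above the empty spots on fewer than 35 of 70 channels of either line.

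None of the other genes of heme production passed. Of 20 genes listed for heme synthesis, transport of its intermediates and mitochondrial import, 13 were matched by name, and 9 of these were above the empty spots on at least 35 arrays of each line. Of the 13, 0 passed limma over the 7 regions, against 0.302% of all probes. At an unadjusted p under 0.05 there were 0 of the 13, against 1444 of all 22824 probes. Their median was -0.01 (range -0.07 to 0.14), beside a median of -0.00 over all probes. Of the genes named from these lists, Abcb6, Ppox, Hmox2 and Mb were above the empty spots on fewer than 35 arrays of at least 1 line. Next to Alas2 the smallest p-values were those of Abcb6, a porphyrin transporter (0.11, SE 0.082, adjusted p = 0.902), and Ppox, protoporphyrinogen oxidase (0.09, SE 0.107, adjusted p = 0.95). Of 20 genes listed for heme breakdown, iron handling and scavenging of free hemoglobin, 18 were matched and 0 passed, with 1 at an unadjusted p under 0.05 and a median of 0.02. This was Blvrb, biliverdin reductase B, a reductase abundant in red cells, at 0.20 (SE 0.082, adjusted p = 0.701) with 6 of 7 regions higher in HAB. Trf, the iron carrier transferrin (0.17, adjusted p = 0.839), followed, and then Pgrmc1 and Hmox2, the constitutive heme oxygenase (each 0.12, adjusted p = 0.901). Of the other globins, Cygb (cytoglobin) stood at -0.16 (adjusted p = 0.844) and Mb (myoglobin) at 0.12 (adjusted p = 0.904).

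Markers of red cells were set beside these values. Of 40 listed genes 26 were matched and 15 of them were above the empty spots on at least 35 arrays of each line. Hbb-b1 was the 1 that passed, and 20 matched genes remained without the globins and Alas2. None of these 20 passed (2 at an unadjusted p under 0.05), 5 were higher in HAB, their median was -0.05 and their values ran from -0.21 to 0.17. Of all 22824 probes, 1444 had an unadjusted p under 0.05 and 11346 were higher in HAB. Only 12 of the 20 were above the empty spots on at least 35 arrays of each line, with a median of -0.02. The smallest p-values were those of Epb41, a protein of the membrane skeleton (-0.21, adjusted p = 0.677), and Nfe2, an erythroid transcription factor (-0.21, adjusted p = 0.74). Of 70 arrays, the Nfe2 spot exceeded the limit on 2 HAB and 8 LAB channels, less often than the empty spots themselves, so that its value is a ratio between background signals. Slc4a1, the anion exchanger of the red cell membrane, was above the empty spots on 61 channels of each line and stood at -0.09, while Klf1, the erythroid Kruppel-like factor (-0.06), was above them on 23 HAB and 22 LAB channels. By region the median of the 20 genes was highest in the SON, at 0.14 with 13 of 20 higher in HAB, and lowest in the BLA, at -0.12 with 3 of 20 higher, and none of the 20 passed within any region. The median of all probes was -0.002 in the SON and -0.004 in the BLA. For the 12 above the empty spots the medians were 0.15 in the SON and -0.10 in the BLA, and those of the CeA (0.08), NAc (0.04) and Cg (-0.09) had the opposite sign to those of the 20. The part of red cells in the Hbb-b1 difference was not tested.

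Markers of other cells that a punch can hold gave no call over the regions. The medians were -0.01 for 18 matched genes of white cells and platelets, 0.02 for 25 of endothelium and pericytes, -0.05 for 7 of choroid plexus and -0.00 for 6 of neurons, with 1, 0, 0 and 2 genes at an unadjusted p under 0.05. Of all 22824 probes, 1444 had an unadjusted p under 0.05 and 0.302% passed. The smallest p-values were those of Lcn2, lipocalin of neutrophils (0.20, adjusted p = 0.73), Kcnj8, a channel of pericytes (0.16, adjusted p = 0.838), Igf2, a growth factor (0.14, adjusted p = 0.876), and Avp, vasopressin of magnocellular neurons (0.32, adjusted p = 0.64). Of these, Kcnj8, Igf2 and Avp were above the empty spots on fewer than 35 arrays of at least 1 line. Within single regions Ttr and Enpp2, choroid plexus genes, were lower in HAB in the BLA (-1.79 and -1.49, limma adjusted p = 5.51e-05 and 8.55e-05), and Cldn5, of endothelial tight junctions, was higher in the NAc (0.89, adjusted p = 0.0437). In either direction 0.101% of all probes passed in the BLA and 1.27% in the NAc. The other choroid plexus genes ran from -0.44 (Aqp1) to 0.49 (Igf2) in the BLA. The other genes of endothelium and pericytes ran from -0.44 (Anpep) to 0.49 (Pecam1) in the NAc. In the SON, the region of the largest Hbb-b1 difference, the medians of the 8 lists ran from -0.08 to 0.20 and no list gene but Hbb-b1 passed. Next to Hbb-b1 the highest list gene there was Avp, at 1.17. Avp also stood at 0.83 in the PVN and 0.45 in the Cg, and between -0.21 and 0.08 in the other regions.

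**Figure D5:**
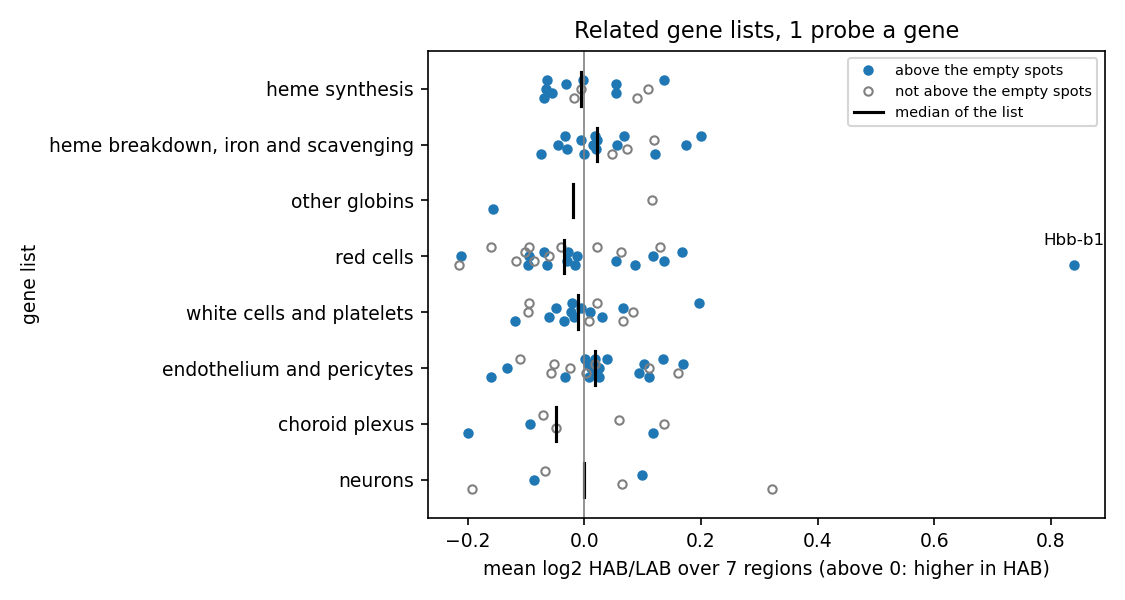
Mean log2 HAB/LAB over the 7 regions of the genes in 8 related lists, 1 point per gene (its brightest probe), filled where it lay above the empty spots on at least 35 arrays of each line, with a bar for the median of the list. Hbb-b1 at 0.84 stands alone, and the other genes lie between -0.21 and 0.32.

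The probes whose pattern was most like that of Hbb-b1 probe 13531 were ranked among those above the empty spots. Over the 7 region values these were hypothetical protein B130031L15 (r = 0.97), an EST similar to a human hypothetical protein (0.96), mitogen activated protein kinase kinase kinase 12, a kinase of neuronal stress signalling (0.96), nuclease sensitive element binding protein 1, which binds DNA and RNA (0.96), and RIKEN cDNA 2310036D04 (0.96). Over the 70 arrays, with dye means removed within a region, they were RIKEN cDNA 2310046H11 (r = 0.58), an unnamed mRNA clone (0.56), an EST (0.56), AI848881 (0.55) and again B130031L15 (0.53). B130031L15 was the 1 probe on both lists, and it also passed over the regions (0.58, adjusted p = 0.00695). Among all probes Hbb-b1 probes 21085 and 12985 ranked 192 and 270 by region values and 28 and 177 by arrays. These are descriptions over regions that share mice and arrays that share pools.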

How the data were processed

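For each of 70 arrays the authors deposited scanner intensities of each spot and its local background in the 2 dyes, not normalized (QuantArray), and a filtered table of normalized log2 ratios; other deposited columns are not used here. The log2 table ran in the direction HAB over LAB on every array and served as an alternative. The array holds 24192 spots; 1368 control and empty spots were left out. Intensities were background corrected in limma 3.58.1 (R 4.3.3; normexp, offset 50; the local background was 0 for 79.8% of spot values), normalized by loess over 40% of the spots and by the medians of 48 print-tip blocks, turned to HAB over LAB and averaged within and then over dye orientations. On 3 arrays the dye of a channel was read from the image name. Limma tested an intercept over 7 region values, a line term with a dye term over 10 arrays of a region, and an F-test between regions over 70 arrays, all with Benjamini-Hochberg adjustment over 22824 probes and a threshold of 0.05. The fits were tested on simulated data. Gene names are those of the array, some of them old. The rule for named genes took all globin and Alas2 probes, the list genes past the test, the 3 smallest adjusted p-values of each list and the 5 probes most like Hbb-b1; Ttr, Enpp2, Cldn5, Slc4a1 and Klf1 were added after their values were seen; 1 red cell gene is not reported here. Members and lists were chosen with earlier results of these data known. Array number limits the precision.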

Additional observations from a re-analysis of the deposited data

Results flagged for a closer look

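Of 112 sets of 5 arrays (8 probes, 7 regions, 2 dye orientations), 2 held an array far from the other 4, and chance gives about 1 in 20. For Hbb-b1 probe 13531 in the SON, 1 array with HAB in Cy5 gave 0.96 while the other 4 lay between 2.33 and 2.42. For Hbb-b1 probe 21085 in the CeA, 1 array with HAB in Cy5 gave 1.10 while the other 4 lay between -0.81 and -0.28. The size of the HAB/LAB difference differed between regions for 3 probes by limma's F-test over repeated arrays of 1 pair of pools per region: Hbb-b1 probe 13531 (adjusted p = 1.23e-07), probe 21085 (adjusted p = 0.00164) and probe 12985 (adjusted p = 0.00477).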

How the results depend on the processing

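The means of Hbb-b1 probes 13531 and 21085 over the regions stayed above 0 under all alternatives and passed under all but a background offset of 0 (0.88 and 0.91, adjusted p = 0.0593 and 0.0585), where 26 of all probes and 0 of the 8 passed; the cause was not tested. Without 1 replicate number at a time the means were 0.79 to 0.90 and 0.82 to 0.87, those of probe 12985 were 0.42 to 0.53, of Hba-a1 -0.22 to 0.01, of Alas2 0.11 to 0.16, and 55 to 67 of all probes and 2 of the 8 passed. Probe 12985 passed without the CeA (0.58). All probes past the test numbered 40 with median centring, 44 on the study's log2 table, where fewer probes were tested, and 370 and 328 with HAB in Cy3 or Cy5 alone, against 69. Values near 0 changed sign: Hbb-bh1 (0.02) with median centring (-0.0875), without print-tip medians (-0.0415), with HAB in Cy5 alone (-0.0214), without 1 replicate (-0.0186 to 0.0434, below 0 without replicate 4) and without the PVN (-0.0141), BLA (-0.00967), Cg (-0.00295) or SON (-0.00869), Hbb-y (-0.06) with HAB in Cy3 alone (0.0018) and Hba-a1 (-0.10) without replicate 5 (0.00635). Within regions, Hbb-b1 probe 12985 (-0.03) changed sign in the BLA with median centring (0.0205), the study's table (0.0367), the scanning day as block (0.0411) and without replicates 1 or 5 (-0.191 to 0.148 without each in turn), as did probe 21085 (0.12) in the CeA with the day as block (-0.0808), without replicate 4 (-0.0399 to 0.343 without each in turn) and without the array that stands apart (-0.0424).

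Same-numbered arrays of opposite orientation correlated at -0.05 to 0.04, so the numbers do not pair them. With the replicate block, 4 in place of 7 pairs of probe and region passed, 2 regions each for probes 13531 and 21085 and 0 for probe 12985. On the study's table, which is filtered to fewer probes, probes 13531 and 21085 passed in 5 regions each and 11 pairs in all. The shares of all probes given for the regions do not apply to that table. Probe 12985 passed in 2 regions with no background correction and with median centring. Without 1 replicate, 2 regions passed for probe 13531, 2 to 3 for probe 21085 and 0 to 2 for probe 12985, and 4 to 6 pairs in all. Between regions, leaving out the SON left 1 of 8 probes past the F-test, with F of 3.17 (adjusted p = 0.132) for probe 13531 and 3.61 (adjusted p = 0.0851) for probe 21085, and leaving out the CeA gave F of 3.88 (adjusted p = 0.0909) for probe 12985. Spots seldom above the empty spots limit what can be said of Hba-a1, Hba-x and Hbb-bh1, and 1 pool per line and region limits all p-values.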
